A study of Mus musculus with 282 samples.

Results

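KK/HlJ is an inbred mouse strain long used as a model of obesity and type 2 diabetes, and C57BL/6J is the inbred strain from which the mouse reference genome was made. The hypothalamus of 3 male KK/HlJ mice was compared here with that of 3 male C57BL/6J mice. They are 6 of the 282 mice of the series, and were chosen by their strain labels alone. All 6 mice were fed a diet high in fat and sugar, so no animal on a standard diet entered the comparison. Strain and any strain-specific response to the diet cannot be told apart. The libraries were made from whole hypothalamus, 1 library per mouse, and ages are not given in the sources used here. The series is a panel of 99 inbred and recombinant inbred strains of the Hybrid Mouse Diversity Panel. It served here to estimate the spread between mice of a strain, and its 23 other classical inbred strains (65 mice) served to place the 2 strains among others. Expression is given in FPKM, the number of sequenced fragments scaled to transcript length and library size, for 14079 gene rows named through the assembly deposited with it.

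The hypothalamus senses leptin, insulin and nutrients and sets food intake, energy use, water balance and the output of the pituitary. Neurons of the arcuate nucleus that make Agrp and Npy promote feeding, and those that make Pomc and Cartpt restrain it. Neurons of the lateral hypothalamus release orexin and melanin-concentrating hormone, and the magnocellular neurons make vasopressin and oxytocin. The peptides are cut from larger precursors by convertases that need helper proteins in the secretory pathway.

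Levels are FPKM of single mice, numbered 1 to 3 within each strain, and differences are KK/HlJ minus C57BL/6J on the log2(FPKM + 1) scale, each with its standard error. This scale understates differences of low genes. The adjusted p is that of limma over all gene rows with 1 group per strain and 3 mice in each of the 2 strains, and a difference counts as called below 0.05. Of 14079 gene rows, 940 were called (6.68%), 396 higher in KK/HlJ (2.81%) and 544 lower (3.86%). Their median absolute difference was 0.57, and that of all gene rows, with sign, was 0.01. The 3 mice of each strain did not overlap in 917 of the called genes, and in 24.1% of all gene rows. Of the 940, 455 were called in each of the 6 fits that left out 1 of the 6 mice.

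The 6 libraries were close in the sum of their FPKM, from 335792 to 349867, against a median of 337467 over the series. Of the gene rows, 13882 to 13967 were above 0. Of 10 neuronal markers, 0 were called by limma (1 at an unadjusted p under 0.05). Rbfox3, Snap25 and the other neuronal genes summed to 1698 to 1824 FPKM in KK/HlJ and 1893 to 1942 FPKM in C57BL/6J, so that each KK/HlJ mouse lay below each C57BL/6J mouse in the sum. Transcripts of neighbouring tissue varied from mouse to mouse. The 6 measured markers of the anterior pituitary, which include growth hormone (Gh) and prolactin (Prl), summed to 15.3, 2757 and 134 FPKM in KK/HlJ mice 1 to 3 and to 5.59, 3.64 and 3.20 FPKM in C57BL/6J mice 1 to 3. Those of the choroid plexus, led by transthyretin (Ttr), summed to 641, 237 and 15.9 FPKM in KK/HlJ and to 38.2, 26.1 and 1422 FPKM in C57BL/6J. KK/HlJ mouse 2 therefore stood apart for pituitary transcripts, and C57BL/6J mouse 3 and KK/HlJ mouse 1 for choroid plexus transcripts. No marker of either tissue was called by limma (2 of the pituitary and 0 of the choroid plexus at an unadjusted p under 0.05), and Gh differed by 6.51 ± 2.36 (adjusted p = 0.0787 by limma, and 0.0336 without KK/HlJ mouse 1). KK/HlJ mouse 3 had the least oligodendrocyte RNA, with marker sums of 2838, 2532 and 1602 FPKM in KK/HlJ and 2585, 2806 and 2806 FPKM in C57BL/6J. The part of these tissues in the differences below was not tested. In whole tissue, fewer cells of a type and less RNA per cell cannot be told apart.

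The 26 lists of genes of feeding, metabolism, signalling and stress held 431 gene rows, of which 38 were called (8.82%), 10 higher and 28 lower in KK/HlJ, beside 6.68% of all gene rows. Without KK/HlJ mouse 2, 31 were called (10 higher, 21 lower), and without KK/HlJ mouse 3, 31 (8 higher, 23 lower). The called genes were spread over lists of lipid metabolism, detoxification, complement and peptide hormones. In the fit of the 6 mice alone, 21 of the 72 called genes that were followed singly lost their call (adjusted p from 0.0669 to 0.216 by limma). Among them were Hcrt, Avp, Tac2, Aldh1a1, Gstm1, Aldh2, Acadl, Dhcr7, Kcnj11, C1qb and Mobp, which are described below. None of the 18 measured receptors of feeding signals passed the threshold by limma, with 3 at an unadjusted p under 0.05. When KK/HlJ mouse 3 was left out, 1 of them was called lower. It was Npy2r, a receptor of NPY and PYY, at 4.77, 5.32 and 7.95 FPKM in KK/HlJ and 8.64, 7.79 and 7.16 FPKM in C57BL/6J (adjusted p = 0.0427 by limma in that fit, and 0.192 with all mice).

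Among the arcuate feeding peptides, 0 of 4 were called by limma, and 0 at an unadjusted p under 0.05. Npy was 17.3, 15.7 and 18.3 FPKM in KK/HlJ and 22.6, 14.3 and 15.3 FPKM in C57BL/6J, a difference of 0.00 ± 0.26. Cartpt was 65.3, 59.0 and 69.5 FPKM in KK/HlJ and 68.7, 62.8 and 51.9 FPKM in C57BL/6J. The strains overlapped for both peptides. Pomc was 20.1, 405 and 31.5 FPKM in KK/HlJ and 31.5, 21.4 and 22 FPKM in C57BL/6J, and the high value came from KK/HlJ mouse 2, the mouse rich in pituitary transcripts. The pituitary makes Pomc as well. The row of Agrp joined that gene with its neighbours and was 124, 121 and 118 FPKM in KK/HlJ and 121, 114 and 117 FPKM in C57BL/6J, while the known Agrp transcript alone measured 1.72, 0.75 and 2.10 FPKM in KK/HlJ and 1.58, 1.71 and 0.77 FPKM in C57BL/6J. Of the 14 measured further neuropeptides, among them Penk, Pdyn and Vip, 0 were called by limma and 1 had an unadjusted p under 0.05.

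Vasopressin (Avp), the antidiuretic hormone of magnocellular and suprachiasmatic neurons, was higher in KK/HlJ. Avp lies at chr2:130580620-130582838 on the minus strand (mm10), and was 426, 419 and 785 FPKM in KK/HlJ and 291, 195 and 224 FPKM in C57BL/6J. The strains did not overlap, and the difference was 1.15 ± 0.37 (adjusted p = 0.034, limma). Against the mean of the other inbred strains, KK/HlJ differed by 1.13 (adjusted p = 0.00119, limma) and C57BL/6J by -0.02, and none of the 23 strain means, from 168 to 374 FPKM, reached that of KK/HlJ. The call against C57BL/6J was lost without KK/HlJ mouse 3, where the adjusted p was 0.274, and also without C57BL/6J mouse 2 or 3. Oxytocin (Oxt), the neighbouring gene, shares its row with other genes, and its known transcript was 234, 236 and 230 FPKM in KK/HlJ and 237, 141 and 143 FPKM in C57BL/6J (adjusted p = 0.668, limma).

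Orexin (Hcrt), the arousal and feeding peptide of the lateral hypothalamus, was lower in KK/HlJ. It measured 78.9, 70.8 and 146 FPKM in KK/HlJ and 217, 155 and 155 FPKM in C57BL/6J. The difference was -0.89 ± 0.28 (adjusted p = 0.0316, limma), with KK/HlJ mouse 3 near the C57BL/6J mice. The call was lost without KK/HlJ mouse 1, KK/HlJ mouse 2 (adjusted p = 0.248, limma) or C57BL/6J mouse 1. Against the other inbred strains neither strain was called for Hcrt, with differences of -0.32 for KK/HlJ and 0.57 for C57BL/6J. Its receptor Hcrtr1 was 2.27, 1.87 and 2.72 FPKM in KK/HlJ and 3.76, 3.93 and 3.08 FPKM in C57BL/6J, which missed the threshold (-0.49 ± 0.17, adjusted p = 0.0645 by limma). Melanin-concentrating hormone (Pmch), from neighbouring neurons of the same area, was 312, 351 and 629 FPKM in KK/HlJ and 430, 404 and 397 FPKM in C57BL/6J. For Pmch, as for Hcrt and Avp, KK/HlJ mouse 3 had the highest value of its strain.

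Tac2, the precursor of neurokinin B that arcuate neurons release to drive reproductive hormone pulses, was lower in KK/HlJ. Its levels were 31.6, 33.5 and 18.6 FPKM in KK/HlJ and 57.5, 45.1 and 52.7 FPKM in C57BL/6J (-0.91 ± 0.25, adjusted p = 0.0113 by limma). The call was lost without KK/HlJ mouse 3 (adjusted p = 0.205, limma) or C57BL/6J mouse 1. The hypophysiotropic hormones Trh, Ghrh, Crh and Sst were not called, and Sst was 148, 144 and 224 FPKM in KK/HlJ and 219, 173 and 166 FPKM in C57BL/6J.

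The most strongly separated gene of the peptide lists was Scg5, which encodes the secretory protein 7B2, a chaperone of the convertase that Pcsk2 encodes. Scg5 measured 329, 369 and 320 FPKM in KK/HlJ and 147, 151 and 154 FPKM in C57BL/6J. Every KK/HlJ mouse was above every C57BL/6J mouse by more than the range within either strain, and the difference was 1.16 ± 0.13 (adjusted p = 4.55e-13, limma). Among the 23 other strains the means ran from 161 to 381 FPKM with a median of 346, and all were above that of C57BL/6J. KK/HlJ differed from the mean of these strains by 0.17 (adjusted p = 0.362, limma) and C57BL/6J by -0.99 (adjusted p = 3.64e-17, limma). The known 6-exon transcript of Scg5 was 157, 207 and 186 FPKM in KK/HlJ and 88.9, 77.2 and 77.6 FPKM in C57BL/6J, a difference of 1.16 ± 0.16 (adjusted p = 1.04e-08, limma over all transcripts). Pcsk2 itself was 72.7, 72.4 and 79.5 FPKM in KK/HlJ and 70.2, 81.8 and 73.8 FPKM in C57BL/6J, and the other 7 genes of peptide processing were not called.

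**Figure D1:**
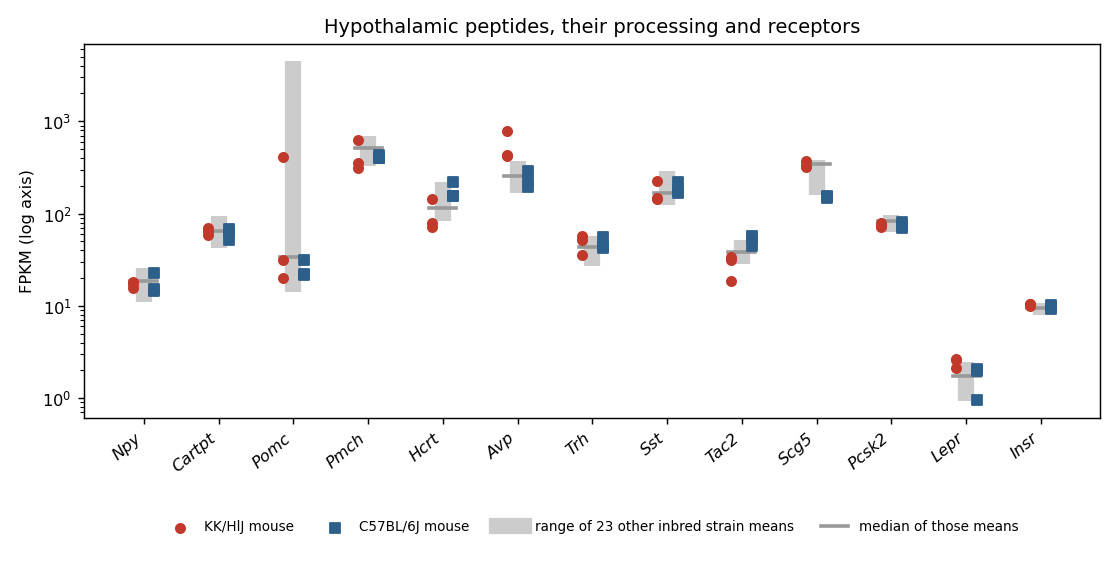
FPKM (log axis) of 13 genes of hypothalamic peptides, peptide processing and feeding receptors in each KK/HlJ and C57BL/6J mouse, with the range and median of the means of 23 other inbred strains behind them. Scg5 separates the strains with C57BL/6J below the other strains, Avp is highest in KK/HlJ mouse 3 at 785 FPKM, and Pomc reaches 405 FPKM in KK/HlJ mouse 2 alone.

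The leptin receptor (Lepr) was 2.60, 2.64 and 2.13 FPKM in KK/HlJ and 1.97, 0.95 and 2.06 FPKM in C57BL/6J, a difference of 0.40 ± 0.19 (adjusted p = 0.236, limma). All 3 KK/HlJ mice were above all 3 C57BL/6J mice, but the adjusted p did not pass. The insulin receptor (Insr) lay between 9.96 and 10.5 FPKM in KK/HlJ and between 9.18 and 10.3 FPKM in C57BL/6J. Of 33 genes of leptin and insulin signalling, 2 were higher and 1 lower (9.09% called, beside 6.68% of all gene rows). Tsc2, which restrains the growth kinase mTOR downstream of insulin, was 16.6, 15.9 and 17.0 FPKM in KK/HlJ and 21, 21.1 and 22.4 FPKM in C57BL/6J (-0.36 ± 0.06, adjusted p = 1.99e-06 by limma). KK/HlJ was below all 23 other inbred strain means for Tsc2 and C57BL/6J above all of them. Trib1, a pseudokinase tied to lipid metabolism, was 2.69, 3.69 and 3.31 FPKM in KK/HlJ and 1.96, 1.58 and 2.42 FPKM in C57BL/6J (0.50 ± 0.13, adjusted p = 0.00267 by limma), and lost its call without KK/HlJ mouse 2 or C57BL/6J mouse 2 (adjusted p = 0.0709). The joined row of Inpp5k, a phosphatase of insulin signalling, was called higher by 0.22 ± 0.07 (adjusted p = 0.0328, limma) and lost its call in 4 of the 6 fits without 1 mouse, those without KK/HlJ mouse 1 or 2 or C57BL/6J mouse 1 or 3 (up to 0.208).

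In glucose metabolism, 2 of 29 genes were lower in KK/HlJ and 0 higher, so that 6.90% were called, near the 6.68% of all gene rows. Pyruvate kinase (Pkm), the last enzyme of glycolysis, was 402, 370 and 361 FPKM in KK/HlJ and 500, 477 and 484 FPKM in C57BL/6J (-0.37 ± 0.07, adjusted p = 8.97e-05 by limma). Kcnj11 encodes the pore of the ATP-sensitive potassium channel, by which beta cells and glucose-sensing neurons couple fuel to firing. It was 4.29, 6.73 and 5.68 FPKM in KK/HlJ and 8.97, 8.70 and 8.99 FPKM in C57BL/6J, a difference of -0.61 ± 0.17 (adjusted p = 0.0128, limma). The groups did not overlap for either gene, and the Kcnj11 call was lost without KK/HlJ mouse 1 (adjusted p = 0.167, limma). Without KK/HlJ mouse 2 the list had 2 genes higher and 2 lower. The higher ones in that fit were the neuronal enolase Eno2 (adjusted p = 0.0217 by limma, and 0.054 with all mice) and Abcc8, the regulatory subunit of the same potassium channel (0.0447, and 0.347 with all mice).

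Among 17 genes of mitochondrial redox and uncoupling, Nnt alone was called (5.88%, beside 6.68% of all gene rows). Nnt encodes the nicotinamide nucleotide transhydrogenase of the inner mitochondrial membrane, and C57BL/6J is known to carry a deletion within this gene. Nnt measured 10.4, 10.6 and 9.55 FPKM in KK/HlJ and 6.00, 5.95 and 6.05 FPKM in C57BL/6J (0.67 ± 0.08, adjusted p = 3.69e-12 by limma). KK/HlJ was within the range of the other strains, 8.13 to 12.2 FPKM, and C57BL/6J was below all 23 of them. Of the 2 known Nnt transcripts, the 15-exon form was 6.58, 3.90 and 3.00 FPKM in KK/HlJ and 0.01, 0 and 2.15 FPKM in C57BL/6J (adjusted p = 0.0438, limma over all transcripts). The 17-exon form was 3.19, 5.96 and 5.95 FPKM in KK/HlJ and 5.53, 5.01 and 3.41 FPKM in C57BL/6J (adjusted p = 0.976). How the quantification divided the reads between these overlapping transcripts was not tested.

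Of 28 genes of glutathione and aldehyde detoxification, 7 were lower in KK/HlJ (25.0%, beside 3.86% of all gene rows called lower) and 0 higher, with a list median of -0.10. Without KK/HlJ mouse 2, and likewise without KK/HlJ mouse 3, 5 were lower. Aldh1a1, the retinaldehyde dehydrogenase that makes retinoic acid, was 19.3, 13.9 and 6.91 FPKM in KK/HlJ and 32.5, 37.4 and 30.9 FPKM in C57BL/6J (-1.37 ± 0.29, adjusted p = 0.000199 by limma), a call lost in the fit of the 6 mice alone (0.0721). Aldh7a1, which oxidises an aldehyde of lysine breakdown, was 23.3, 22.9 and 20.4 FPKM in KK/HlJ and 41.1, 34.8 and 38.4 FPKM in C57BL/6J (-0.75 ± 0.10, adjusted p = 3.17e-11 by limma). The glutathione transferase Gstm6 was 9.33, 10.9 and 8.59 FPKM in KK/HlJ and 20.8, 15.8 and 19.5 FPKM in C57BL/6J (-0.89 ± 0.16, adjusted p = 1.05e-05 by limma). None of these 3 genes overlapped between the strains. Akr1b3, the aldose reductase of the polyol pathway, was lower by a difference of -0.52 ± 0.12 (adjusted p = 0.00131, limma). The other 3 calls were lost in fits without single mice. Gstm1 was 107, 99.7 and 99.9 FPKM in KK/HlJ and 141, 122 and 119 FPKM in C57BL/6J, and its call (adjusted p = 0.00508, limma) was lost without C57BL/6J mouse 1 (0.13). Glo1, which detoxifies methylglyoxal, was 26.7, 26 and 24.2 FPKM in KK/HlJ and 31.8, 37.5 and 34.3 FPKM in C57BL/6J (adjusted p = 0.0353, limma), and the mitochondrial Aldh2 differed by -0.33 ± 0.11 (adjusted p = 0.0488, limma). Both lost their call in 5 of the 6 fits without 1 mouse, Glo1 in all but that without C57BL/6J mouse 1 and Aldh2 in all but that without C57BL/6J mouse 2.

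Of 18 genes of fatty acid breakdown, 3 were lower in KK/HlJ and 0 higher (16.7% called, beside 6.68% of all gene rows, list median -0.11). Acot13, a mitochondrial acyl-CoA thioesterase, was 27.1, 27.5 and 23.4 FPKM in KK/HlJ and 62.6, 52.5 and 57.7 FPKM in C57BL/6J (-1.12 ± 0.15, adjusted p = 3.12e-10 by limma). All 23 other inbred strain means for Acot13, from 30.5 to 60.7 FPKM, were above that of KK/HlJ, which differed from their mean by -0.89. The long-chain acyl-CoA dehydrogenase Acadl (-0.46 ± 0.10, adjusted p = 0.000114 by limma) was lower in KK/HlJ too. For Acadl, C57BL/6J was above all other inbred strains and KK/HlJ within their range.

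Of 28 genes of cholesterol and fatty acid synthesis, 1 was higher and 2 lower (10.7% called, beside 6.68% of all gene rows). Dhcr7, the last enzyme of a branch of cholesterol synthesis, was 22.6, 18.9 and 26.9 FPKM in KK/HlJ and 16, 14.4 and 16.1 FPKM in C57BL/6J (0.52 ± 0.10, adjusted p = 8.26e-05 by limma), and the KK/HlJ mean was above all 23 other strains. The preceding enzyme of that branch, Sc5d, went the other way (-0.55 ± 0.11, adjusted p = 0.000107 by limma). The desaturase Scd1, which makes monounsaturated fatty acids, was 57.4, 53.9 and 56.4 FPKM in KK/HlJ and 76.6, 76.7 and 80.1 FPKM in C57BL/6J (-0.47 ± 0.09, adjusted p = 2.72e-05 by limma). KK/HlJ was below all 23 other strains for Scd1.

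**Figure D2:**
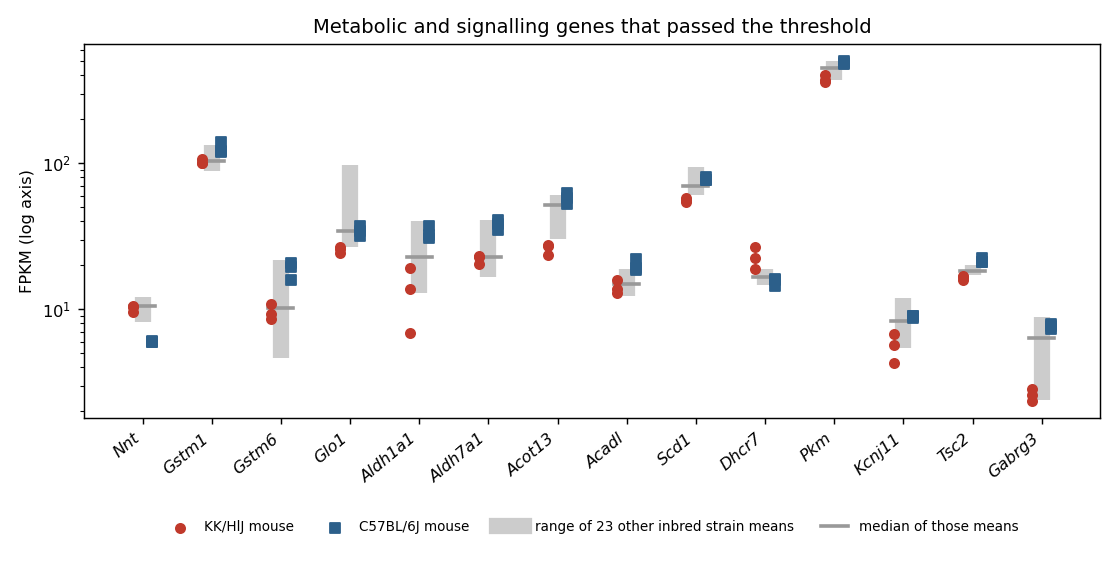
FPKM (log axis) of 14 genes of metabolism and signalling that passed the threshold, in each mouse of the 2 strains, with the range and median of the means of 23 other inbred strains. Nnt and Dhcr7 lie higher in KK/HlJ and the other 12 lower, and C57BL/6J is below every other strain for Nnt while KK/HlJ is below every other strain for Acot13, Scd1 and Tsc2.

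Among GABA-A receptor subunits, 1 of 13 gene rows was higher and 1 lower in KK/HlJ (15.4% called, beside 6.68% of all gene rows). Gabrg3, a gamma subunit, was 2.59, 2.35 and 2.85 FPKM in KK/HlJ and 7.72, 7.87 and 7.28 FPKM in C57BL/6J (-1.26 ± 0.10, adjusted p = 2.71e-23 by limma). KK/HlJ differed from the other inbred strains by -1.06 and 22 of the 23 were above it. The higher row joined Gabra2 and Gabrg1, neighbouring subunit genes, and was 51.6, 57.9 and 61.2 FPKM in KK/HlJ and 35.4, 35.0 and 32.5 FPKM in C57BL/6J (0.71 ± 0.13, adjusted p = 9.8e-06 by limma). Its transcripts divided the difference unequally. The known Gabra2 transcript was 16.6, 17.1 and 16.6 FPKM in KK/HlJ and 6.76, 6.87 and 4.83 FPKM in C57BL/6J (1.32 ± 0.34, adjusted p = 0.0133 by limma over all transcripts). An unannotated 11-exon form of Gabra2 differed by 1.40 ± 0.14 (adjusted p = 1.2e-15), while the known Gabrg1 transcript differed by 0.15 ± 0.13 (adjusted p = 0.756). All 23 other inbred strains were above C57BL/6J for the joined row. None of 22 glutamate receptor subunits was called by limma, with 3 at an unadjusted p under 0.05. Gria2, an AMPA receptor subunit, was 68.2, 161 and 69.1 FPKM in KK/HlJ and 61.5, 60.4 and 56.9 FPKM in C57BL/6J, highest in KK/HlJ mouse 2. Its difference of 0.61 had an adjusted p of 0.0848 by limma with all mice, and was called without KK/HlJ mouse 1 (0.0257) or mouse 3 (0.0301).

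Of 9 measured genes of aminergic synthesis and breakdown, 1 was lower in KK/HlJ and 0 higher (11.1% called, beside 6.68% of all gene rows). Tyrosine hydroxylase (Th), which makes the precursor of catecholamines, was 29.9, 16.9 and 19.9 FPKM in KK/HlJ and 19.5, 13.2 and 16 FPKM in C57BL/6J and was not called.

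Genes of immunity and glia changed in both directions. Of 13 complement and acute phase genes, 1 was higher and 3 lower (30.8% called, beside 6.68% of all gene rows). Serpina3n, a protease inhibitor that reactive astrocytes secrete, was 62.0, 63.7 and 69.9 FPKM in KK/HlJ and 24.3, 20.02 and 23.3 FPKM in C57BL/6J (1.496 ± 0.15, adjusted p = 4.01e-17 by limma). Its known 5-exon transcript differed by 1.63 ± 0.18. Clusterin (Clu), an astrocyte chaperone, was 346, 334 and 313 FPKM in KK/HlJ and 467, 435 and 482 FPKM in C57BL/6J (-0.48 ± 0.10, adjusted p = 0.000122 by limma). The chains of complement C1q, which microglia make and which assemble into a common protein, gave unlike values. C1qc was 13.8, 10.2 and 12.7 FPKM in KK/HlJ and 25.9, 22.4 and 22.7 FPKM in C57BL/6J (-0.91 ± 0.19, adjusted p = 0.000208 by limma). C1qb differed by -0.80 ± 0.22 (adjusted p = 0.00801, limma), a call lost without KK/HlJ mouse 3 (0.172) or C57BL/6J mouse 3. C1qa was 23.1, 23 and 19.5 FPKM in KK/HlJ and 22.6, 21.8 and 19.5 FPKM in C57BL/6J, with the strains overlapping.

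Of 19 genes of the major histocompatibility complex and its peptide loading, 0 were higher and 2 lower (10.5% called, beside 6.68% of all gene rows). H2-T22, a non-classical class I gene, was 0.68, 1.47 and 1.05 FPKM in KK/HlJ and 8.31, 8.38 and 7.77 FPKM in C57BL/6J (-2.16 ± 0.20, adjusted p = 1.27e-19 by limma), and its neighbour H2-T24 differed by -1.16 ± 0.19 (adjusted p = 7.74e-07, limma). H2-T22 is 96.5% identical to H2-T10 over 1703 bases, so its reads may be shared. The classical class I gene H2-K1 was 13.9, 19.6 and 12.4 FPKM in KK/HlJ and 16.2, 14.5 and 13.1 FPKM in C57BL/6J. Of 16 interferon-stimulated genes, 0 were called by limma and 1 had an unadjusted p under 0.05. It was Xaf1 (-0.71, adjusted p = 0.0528 by limma, and 0.0483 without C57BL/6J mouse 3).

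In the list of inflammation and gliosis on fat diet, 0 of 15 genes were higher and 2 lower (13.3% called, beside 6.68% of all gene rows). These were Itgam, an integrin chain of microglia and other myeloid cells (-0.53 ± 0.16, adjusted p = 0.0199 by limma), and Ikbkb, a kinase of the NF-kB pathway (-0.36 ± 0.11, adjusted p = 0.0281 by limma). Without KK/HlJ mouse 2 neither was called, and the Itgam call was also lost without KK/HlJ mouse 1 or C57BL/6J mouse 2 or 3, and that of Ikbkb without KK/HlJ mouse 3 or C57BL/6J mouse 1. Gfap, which astrocytes raise in gliosis, was 74.8, 88.5 and 58.4 FPKM in KK/HlJ and 68.2, 64.0 and 68.7 FPKM in C57BL/6J, a difference of 0.12 ± 0.21. The microglial purine receptor P2ry12 was 7.49, 8 and 8.43 FPKM in KK/HlJ and 2.75, 3.09 and 1.45 FPKM in C57BL/6J. These groups did not overlap, but the difference of 1.42 ± 0.57 missed the threshold (adjusted p = 0.129, limma). Its standard error rests on the spread between mice of a strain, taken over all strains. Of the 10 microglial markers, 1 was lower (Itgam) and 0 higher.

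Of 10 oligodendrocyte markers, 3 were lower in KK/HlJ (30.0% called, beside 6.68% of all gene rows), with a list median of -0.38. Mobp, a protein of compact myelin, was 289, 291 and 163 FPKM in KK/HlJ and 349, 365 and 373 FPKM in C57BL/6J (-0.60 ± 0.16, adjusted p = 0.00558 by limma). Cldn11 (-0.48, adjusted p = 0.0221 by limma) and Mal (-0.63, adjusted p = 0.026 by limma), both of the myelin sheath, were the others. Without KK/HlJ mouse 3, the mouse low in this cell type's transcripts, 0 of the 10 were called and the adjusted p of these 3 genes was 0.349, 0.468 and 0.405. When KK/HlJ mouse 2 was left out, 4 were lower, among them the myelin gene Mog (adjusted p = 0.0439 by limma, and 0.177 with all mice). In the fit without KK/HlJ mouse 1, Mag, Cnp and Opalin were called lower (adjusted p from 0.0309 to 0.0336). Mbp, the most abundant marker, was 1549, 1282 and 809 FPKM in KK/HlJ and 1247, 1324 and 1344 FPKM in C57BL/6J, and was not called in any case. The Cldn11 call was also lost without each C57BL/6J mouse, and that of Mal without C57BL/6J mouse 2 or 3.

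The remaining lists held few calls by limma. Arnt2, the partner of SIM1 in neuroendocrine neurons, was lower (-0.23 ± 0.08, adjusted p = 0.0487), as were the cochaperone Stip1 (-0.25 ± 0.08, adjusted p = 0.0211) and the astrocyte enzyme Aldh1l1 (-0.36 ± 0.11, adjusted p = 0.026). The joined rows of Dbp, a clock output factor (0.43 ± 0.13, adjusted p = 0.0292), and of Atf6, a sensor of endoplasmic reticulum stress (0.26 ± 0.08, adjusted p = 0.0208), were higher. All 5 lost their call in 3 or more of the 6 fits without 1 mouse, among them for each the fit without C57BL/6J mouse 1. For Arnt2 the others were those without KK/HlJ mouse 1 or 2 or C57BL/6J mouse 3, for Stip1 those without KK/HlJ mouse 2 or 3 or C57BL/6J mouse 2, and for Atf6 those without KK/HlJ mouse 3 or C57BL/6J mouse 2. Aldh1l1 kept its call in the fit without KK/HlJ mouse 1, and Dbp in none. Another clock gene, the repressor Cry2 (0.19, adjusted p = 0.0505 by limma with all mice), was called higher without KK/HlJ mouse 2 (0.0352) or C57BL/6J mouse 2 (0.0394). Steroid and thyroid receptors (18 genes), immediate early genes (14) and glucocorticoid-responsive genes (16) had 0 calls, with 1, 2 and 2 genes at an unadjusted p under 0.05. Markers of endothelium (9), thalamus (5), striatum (6) and cortex and hippocampus (2) had 0 calls as well, with 1 endothelial gene at an unadjusted p under 0.05.

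Over all gene rows, 206 genes were called with an absolute difference of at least 1 (1.46% of those tested), 113 higher (0.803%) and 93 lower (0.661%) in KK/HlJ. Among genes with a single symbol and no overlap between the mice of the strains, the 15 highest and the 15 lowest are described. Rps26-ps1, a processed copy of the ribosomal protein gene Rps26, headed the higher genes with 129, 121 and 123 FPKM in KK/HlJ and 0.68, 1.11 and 0.80 FPKM in C57BL/6J (6.08 ± 0.41, adjusted p = 1.48e-30 by limma). The alpha-tubulin gene Tuba1c was 13.6, 15.9 and 16.7 FPKM in KK/HlJ and 0.56, 0.53 and 1.08 FPKM in C57BL/6J (3.26 ± 0.26). A near-identical copy is a transcript of another gene with at least 95% identity over at least 200 bases and 50% of either transcript. Of these 15 higher genes, 9 were annotated pseudogenes and 12 had such a copy. They included Gm9825 (2.85), Gm8730 (2.70), AK157302 (2.58), Gm6472 (2.51), Rps3a2 (2.31), Gm10704 (2.06) and Rps3a3 (1.90), each with its log2 difference. Tuba1c was also among them, with 10 such copies. Its copy Tuba1b, 99.4% identical over 1307 bases, was lower in KK/HlJ (-0.56, adjusted p = 0.0272 by limma). The Tuba1b call was lost in 5 of the 6 fits without 1 mouse. Tuba1c and Tuba1b summed differed by -0.21, and how reads were shared between them was not tested. Gm10020, Gm8420 and the meiotic gene Sycp1 were listed at 0 in all 3 C57BL/6J mice. Sycp1 was 3.56, 1.26 and 3.86 FPKM in KK/HlJ, above all 23 other strains. Pla2g4e, a cytosolic phospholipase A2 that makes N-acyl phosphatidylethanolamines, was 14.4, 13.9 and 15.5 FPKM in KK/HlJ and 3.00, 3.75 and 4.10 FPKM in C57BL/6J (1.76 ± 0.14, adjusted p = 3.1e-25 by limma). The non-coding gene RP24-390G17.1 was 18.4, 19.5 and 19.0 FPKM in KK/HlJ and 2.22, 2.05 and 2.24 FPKM in C57BL/6J (2.66 ± 0.21). It lies antisense to another gene, and because the libraries carry no strand, reads of the pair cannot be told apart.

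Lowest in KK/HlJ was Gm4076, at 0.0140, 0.145 and 0.0129 FPKM against 141, 131 and 130 FPKM in C57BL/6J (-7.00 ± 1.33, adjusted p = 1.98e-05 by limma). This gene is 95.2% identical to the mitochondrial gene mt-Nd5 over 954 bases, and the other inbred strains ran from 0.00712 to 210 FPKM. Pttg1, securin, which holds sister chromatids together until anaphase, was 4.18, 4.25 and 4.10 FPKM in KK/HlJ and 35.3, 30.1 and 35.1 FPKM in C57BL/6J (-2.73 ± 0.31, adjusted p = 9.07e-14 by limma). KK/HlJ was near the median of the other strains for Pttg1 (3.50 FPKM), and C57BL/6J was 3.20 above their mean. The slow skeletal troponin gene Tnni1 was 0, 0.56 and 0.22 FPKM in KK/HlJ and 6.42, 5.41 and 8.19 FPKM in C57BL/6J (-2.61 ± 0.27). No other strain mean reached C57BL/6J for Tnni1, whose highest was 3.79 FPKM. Zbed3, a zinc finger gene of the Wnt pathway, was 3.11, 3.42 and 3.37 FPKM in KK/HlJ and 15, 19.9 and 15.8 FPKM in C57BL/6J (-2.05 ± 0.42). Apoa2, an apolipoprotein of high density lipoprotein, was listed at 0 in all 3 KK/HlJ mice and was 3.15, 1.68 and 2.67 FPKM in C57BL/6J. Rps26 itself was 44.5, 51.4 and 45.0 FPKM in KK/HlJ and 268, 192 and 195 FPKM in C57BL/6J (-2.18 ± 0.19, adjusted p = 4.75e-21 by limma), and Rpl26, a protein of the large ribosomal subunit, was 71.3, 72.2 and 62.8 FPKM in KK/HlJ and 298, 249 and 249 FPKM in C57BL/6J (-1.93 ± 0.19). The alpha-globin gene Hba-a2 was 0, 1.35 and 0 FPKM in KK/HlJ and 6.27, 4.94 and 4.53 FPKM in C57BL/6J. Its copy Hba-a1, identical over 99.8% of 538 bases, was 35.2, 34.7 and 29.9 FPKM in KK/HlJ and 20.1, 14.6 and 17.3 FPKM in C57BL/6J, in the opposite direction and not called (adjusted p = 0.177, limma). The zinc finger genes Zfp125 (-2.58), Gm14326 (-2.11) and Gm14399 (-1.79), H2-T22 (-2.16), Gm5914 (-2.06), E130116L18Rik (-1.88) and Pisd-ps1 (-1.76) completed the 15. Of these 15 lower genes, 3 were annotated pseudogenes and 9 had a near-identical copy. Rps26 was among the 9, as was Rpl26 with 5 such copies, and how reads were shared with them was not tested. All 30 genes of these extremes were called in each fit that left out 1 mouse.

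**Figure D3:**
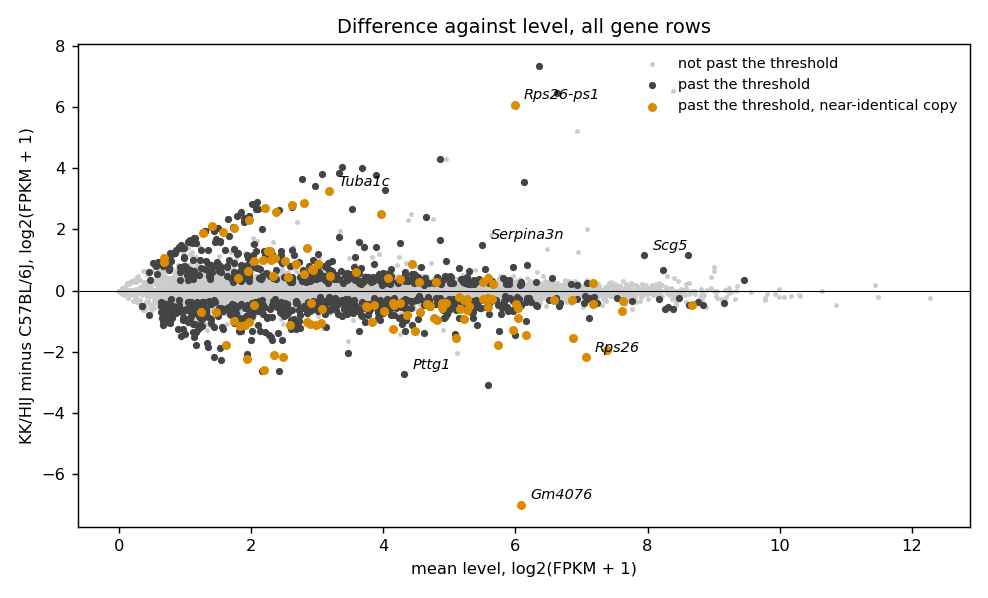
Difference between KK/HlJ and C57BL/6J, on the log2(FPKM + 1) scale, against the mean level on that scale for 14079 gene rows. Dark and orange points passed the threshold. Orange points have a near-identical copy elsewhere in the genome. Dark points had none found or, for joined rows and rows without a symbol, were not checked. Rps26-ps1 at 6.08 and Gm4076 at -7.00 are both orange, and Scg5 at 1.16 and Serpina3n at 1.496 are dark.

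Genes with a near-identical copy numbered 961, of which 109 were called (11.3%, 42 higher and 67 lower), beside 589 of 10488 genes without a copy (5.62%, 222 higher and 367 lower). Of 74 annotated pseudogenes 21 were called (28.4%), 15 of them higher in KK/HlJ, beside 642 of 10891 protein-coding genes (5.89%). A read from a gene and its processed copy differs at few bases, as the pair at the head of the list shows. The coding sequence of Rps26 (chr10:128624534-128626747, minus strand) and the matching stretch of Rps26-ps1 (chr8:107439131-107439579, minus strand) differ at 2 of 348 bases. The substitutions from Rps26 to the copy, counted from 1 at the first coding base, are C30T and G270A. The first 300 bases of each, from the GENCODE transcripts on GRCm38, are given 5′ to 3′ with the differing bases in capitals.
Rps26: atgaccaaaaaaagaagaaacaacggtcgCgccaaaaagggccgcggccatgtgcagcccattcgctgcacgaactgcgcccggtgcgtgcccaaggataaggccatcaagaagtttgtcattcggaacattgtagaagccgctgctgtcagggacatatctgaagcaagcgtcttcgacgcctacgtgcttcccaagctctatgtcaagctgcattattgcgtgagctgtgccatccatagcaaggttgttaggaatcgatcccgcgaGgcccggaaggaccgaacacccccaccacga
Rps26-ps1: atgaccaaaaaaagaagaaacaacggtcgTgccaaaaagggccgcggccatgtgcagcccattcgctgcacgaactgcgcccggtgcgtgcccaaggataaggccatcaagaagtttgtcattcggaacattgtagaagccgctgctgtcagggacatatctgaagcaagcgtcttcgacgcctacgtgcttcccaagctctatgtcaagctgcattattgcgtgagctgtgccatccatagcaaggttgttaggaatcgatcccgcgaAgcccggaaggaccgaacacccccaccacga

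Rplp0, the acidic ribosomal protein often used as a reference gene, and its copy Gm8730 differ more. Rplp0 lies at chr5:115559467-115563727 on the plus strand and Gm8730 at chr8:102864845-102865798 on the minus strand, and they differ at 12 of 954 coding bases. Bases 259 to 558 of each hold 6 of these, T300C, A390G, A393G, A447T, G502A and G558C, again in capitals.
Rplp0: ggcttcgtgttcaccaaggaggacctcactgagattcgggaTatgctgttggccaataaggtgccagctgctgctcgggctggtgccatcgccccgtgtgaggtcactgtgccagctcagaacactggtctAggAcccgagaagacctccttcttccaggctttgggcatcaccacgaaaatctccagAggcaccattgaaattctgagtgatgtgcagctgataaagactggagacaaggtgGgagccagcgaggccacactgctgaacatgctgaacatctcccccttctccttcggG
Gm8730: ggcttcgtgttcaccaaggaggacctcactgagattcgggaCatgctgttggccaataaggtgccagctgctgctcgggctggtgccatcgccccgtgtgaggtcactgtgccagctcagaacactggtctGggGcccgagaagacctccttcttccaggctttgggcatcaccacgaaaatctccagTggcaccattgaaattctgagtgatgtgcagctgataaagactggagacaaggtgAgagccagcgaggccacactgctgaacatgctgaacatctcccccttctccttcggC

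In the mice, several parent genes were lower where their copies were higher. Rplp0 was 37.1, 41.4 and 34.4 FPKM in KK/HlJ and 119, 91.5 and 102 FPKM in C57BL/6J (-1.44, adjusted p = 4.38e-13 by limma), while Gm8730 was 8.56, 8.09 and 4.51 FPKM in KK/HlJ and 0.16, 0.26 and 0.20 FPKM in C57BL/6J. The sum of parent and copy was 44.7 ± 5.33 FPKM (SD, n = 3) in KK/HlJ and 104 ± 14 FPKM (SD, n = 3) in C57BL/6J. Its log2 difference was -1.20 where the parent alone gave -1.44. The sum of Rps26 and Rps26-ps1 was 171 ± 2.89 FPKM (SD, n = 3) in KK/HlJ and 219 ± 43.1 FPKM (SD, n = 3) in C57BL/6J, a log2 difference of -0.34 where the parent alone gave -2.18. Rnps1, an RNA-binding protein of the exon junction, was 12.5, 10.9 and 12.4 FPKM in KK/HlJ and 31.5, 29.3 and 31.6 FPKM in C57BL/6J, and its log2 difference of -1.30 became -0.43 in the sum with Gm9825. Isca1, which assembles iron-sulfur clusters, went from -0.61 to -0.28 in the sum with AK157302. Rps7, Rps3a1 and Rpl15, the parents of Gm6472, of Rps3a2 and Rps3a3, and of Gm10020 and Gm8420, were not called by limma themselves. A sum of FPKM weighs genes of unequal length equally and is given as a description. Each sum holds only the copy named, and further near-identical copies, such as Gm9625 and Gm14165 for Gm8730, were not added. Both strains' reads were aligned to the C57BL/6J genome, and how reads of the 2 strains were shared out between copies was not tested.

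**Figure D4:**
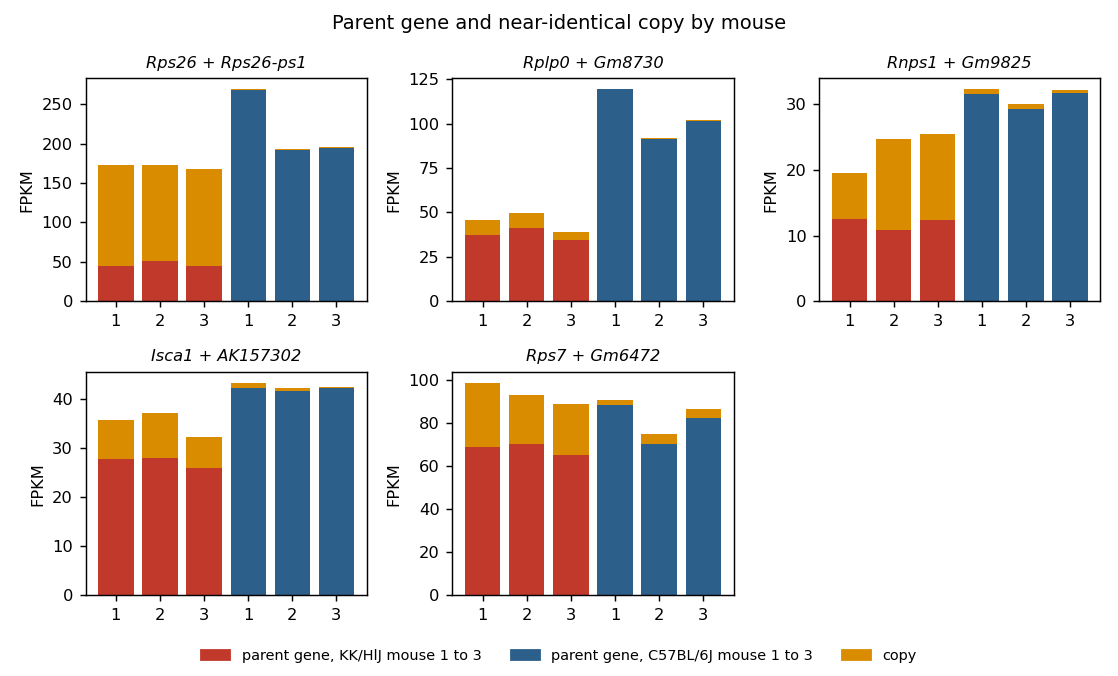
FPKM of 5 parent genes (lower part of each bar) and of a near-identical copy (orange, upper part) in each KK/HlJ and C57BL/6J mouse, on linear axes from 0. The copy adds visibly in KK/HlJ and little in C57BL/6J, and the 2 strains' whole bars are nearer to each other for Rps26 with Rps26-ps1 (171 and 219 FPKM) than for Rplp0 with Gm8730 (44.7 and 104 FPKM).

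Loci without a gene symbol made up 204 of the 940 calls, and 10.5% of such rows were called beside 6.12% of rows with 1 symbol. The unnamed locus at chr4:69925205-69934039 was 153, 177 and 154 FPKM in KK/HlJ and listed at 0 in all 3 C57BL/6J mice, while that at chr5:3021050-3236958 was 171, 203 and 210 FPKM in KK/HlJ and 5.2, 0.71 and 0 FPKM in C57BL/6J. The most strongly lower unnamed rows were XLOC_032979, at 10.8, 10.2 and 6.90 FPKM in KK/HlJ and 86.2, 86.7 and 80.9 FPKM in C57BL/6J, and XLOC_010790, at 0.30, 0.77 and 0.43 FPKM in KK/HlJ and 9.06, 7.52 and 8.01 FPKM in C57BL/6J. Neither of the last 2 had a transcript in the deposited assembly, so no position is given for them.

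Each of the 2 strains was also set against the 23 other inbred strains, which share no mice with either. These comparisons share the KK/HlJ or the C57BL/6J mice with the direct comparison, so their values stand side by side and are not independent of it. KK/HlJ differed from the others in 975 genes (6.93%, 475 higher, 3.37%, and 500 lower, 3.55%), and C57BL/6J in 942 (6.69%, 516 higher, 3.67%, and 426 lower, 3.03%). Without KK/HlJ mouse 2 the first count was 568, and without C57BL/6J mouse 1, 2 or 3 the other was 615, 577 and 612. Of the 940 genes called between the 2 strains, KK/HlJ alone was outside the range of the other 23 strain means in 234 (24.9%) and C57BL/6J alone in 193 (20.5%). Both were outside in 38, and neither in 475 (50.5%). Among all gene rows these shares were 7.49% for KK/HlJ alone, 6.55% for C57BL/6J alone and 85.1% for neither. Of the genes described above, Scg5, Nnt and the joined Gabra2 row had C57BL/6J at the edge of the panel, and Acot13, Scd1, Avp and Dhcr7 had KK/HlJ there. For Tsc2 the 2 strains stood at opposite edges.

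Some genes set both strains apart from the mean of the other inbred strains and were not called between them. Rpl29, a ribosomal protein gene, was 47.0, 44.3 and 45.4 FPKM in KK/HlJ and 49.1, 41.0 and 38.1 FPKM in C57BL/6J, while the median of the other strains was 10.8 FPKM. KK/HlJ was 1.73 and C57BL/6J 1.63 above the mean of the others, and 1 strain reached them at 46.9 FPKM. Gm10709 (1.76 and 1.77) and Gm5148 (1.72 and 1.5) were likewise higher in both. For Gm10709, 3 other strain means were at or above each of the 2 strains, and for Gm5148, 4 were at or above C57BL/6J. Gm10260 was listed at 0 in every C57BL/6J mouse and at 0, 0 and 0.82 FPKM in KK/HlJ, beside a median of 64.6 FPKM in the other strains. Gm7292 was lower in both strains than the others' mean, by differences of -2.75 for KK/HlJ and -2.45 for C57BL/6J, and Gm5506 was so by -3.74 for KK/HlJ with 0 FPKM in all C57BL/6J mice. For Gm7292, 21 of the other strain means were at or above KK/HlJ and only 15 at or above C57BL/6J. Rpsa-ps10 was lower than the others' mean in both strains, by differences of -2.19 for KK/HlJ and -1.70 for C57BL/6J. The median of the other strains was 2.93 FPKM and their highest mean 113 FPKM. Near-identical copies numbered 32 each for Rpl29 and Gm10709, 11 for Rpsa-ps10, 5 for Gm10260, 3 for Gm5506 and 1 for Gm5148. Gm7292 was not checked for copies. How reads were shared with these copies was not tested, so the levels may not be those of the named genes alone. Fcrls, a microglial Fc receptor-like gene, set C57BL/6J apart. It was 1.06, 2.01 and 1.62 FPKM in KK/HlJ and 5.92, 7.03 and 5.99 FPKM in C57BL/6J, and C57BL/6J was 1.91 above the other strains' mean.

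Of 51024 transcripts, 946 were called (1.85%), 405 higher (0.794%) and 541 lower (1.06%) in KK/HlJ. The share of each transcript in the summed FPKM of the deposited transcripts of its gene gave a measure of isoform use apart from the level. Of 40530 shares in 7084 genes, 332 were called with a difference of at least 0.1 (0.819%), 190 higher (0.469%) and 142 lower (0.35%). They fell in 243 genes, of which 189 were not called by level. Of the called shares 125 belonged to unannotated isoforms and 204 to known transcripts, and 132 were called in each fit without 1 mouse. In the fit of the 6 mice alone, the only call was that of Nrsn1.

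Nrsn1, which encodes the neuronal vesicle protein neurensin, had the largest difference in isoform use. An unannotated 3-exon isoform lies at chr13:25252035-25264137. It made up 0.953, 0.948 and 0.971 of the summed FPKM of the gene's deposited transcripts in KK/HlJ. In every C57BL/6J mouse its share was 6.04e-05 or less (0.957 ± 0.04, adjusted p = 1.95e-58 by limma over all shares). In C57BL/6J a 5-exon isoform held 0.658, 0.808 and 0.723 and the known 4-exon transcript 0.315, 0.165 and 0.2 of the same sum. The gene's own level differed by -0.15 and was not called (adjusted p = 0.621, limma). Among the other inbred strains the median share of the 3-exon isoform was 0.000118 and the highest 0.978, so at least 1 of them shared the KK/HlJ pattern. The level as deposited for the gene row and the sum of its transcripts differ, since the summed transcripts were 75.4, 75.4 and 88.8 FPKM in KK/HlJ and 137, 134 and 120 FPKM in C57BL/6J.

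Slc15a2, the peptide transporter PEPT2, came next. Its known 22-exon transcript held 0.884, 0.754 and 0.826 of the gene's transcript sum in KK/HlJ and 0.0799 or less in C57BL/6J (0.795 ± 0.11, adjusted p = 4.53e-08 by limma), with a median of 0.644 in the other strains. In Ubb, a polyubiquitin gene, the longer known transcript held 0.168, 0.258 and 0.144 in KK/HlJ and 1, 0.941 and 0.700 in C57BL/6J (-0.691 ± 0.08, adjusted p = 8.39e-13 by limma). Ubb was also lower by level (-0.67, adjusted p = 5.67e-08 by limma) and has near-identical copies. A known N6amt2 transcript held 0.000237, 0.333 and 0.270 in KK/HlJ and 1, 0.756 and 0.957 in C57BL/6J (-0.703 ± 0.13, adjusted p = 6.49e-05 by limma). An unannotated 4-exon form of Adnp2 varied within KK/HlJ, at 0.805, 0.999 and 0.342, and was 0.00613 or less in C57BL/6J. Its call (adjusted p = 0.0152, limma) was lost without KK/HlJ mouse 1 or 2 or C57BL/6J mouse 1 or 2.

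**Figure D5:**
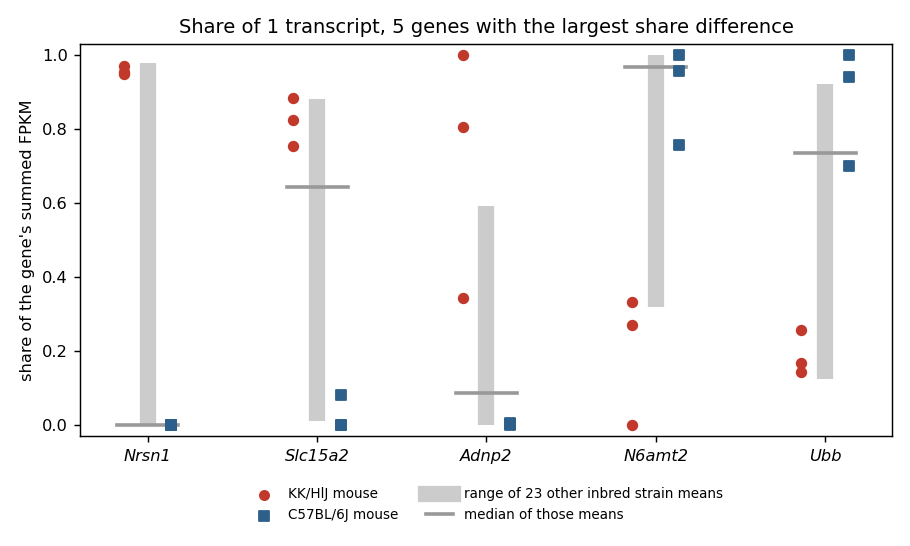
Share of a single transcript in the summed FPKM of the deposited transcripts of its gene (0 to 1) in each KK/HlJ and C57BL/6J mouse for the 5 genes with the largest share difference, with the range and median of the means of 23 other inbred strains. The strains are at opposite ends for Nrsn1, and Adnp2 spreads from 0.342 to 0.999 within KK/HlJ.

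Only the 12524 gene rows with a position could be placed, and called rows without a position are left out here. Among the placed rows, calls lay on every chromosome. Their share ran from 3.60% on chromosome X to 9.48% on chromosome 13 among the autosomes and X. Of 258 windows of 10000000 bases with at least 10 genes, 31 had no called gene and the median share was 5.58%. In 8 windows at least 20% of the genes were called. The densest lay at the start of chromosome 14 with 6 of 10 genes, among them Fam107a, a stress-responsive gene of astrocytes and neurons, and the hydrolase gene Fhit. Fam107a was 29.6, 37.1 and 32.9 FPKM in KK/HlJ and 93.9, 92.1 and 89.8 FPKM in C57BL/6J (-1.45 ± 0.14, adjusted p = 2.95e-18 by limma), and all 23 other strains were above KK/HlJ. The next, at the end of chromosome 2 from base 170000001, held 12 called genes of 43, including the zinc finger cluster of Gm14305, Gm14403, Gm14399, Gm14410, Gm14326 and Zfp931, whose members share sequence. A window on chromosome 7 from base 50000001 held 5 of 21, among them Gabrg3 and the channel-family gene Ano5. These windows were chosen for their counts and are given as a description, with no test.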

How the data were processed

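RNA of the whole hypothalamus was sequenced without strand, with a library for each of 282 male mice fed a diet high in fat and sugar. STAR 2.3.1 aligned the reads of every strain to mm10, a genome built from C57BL/6J. For each strain the authors then assembled transcripts (Cufflinks 2.2.0), joined the assemblies with GENCODE M2 and quantified each mouse (Cuffquant and Cuffnorm 2.2.1). The unit deposited by the authors is FPKM, scaled between libraries by Cuffnorm. A check of the values showed that each row passed 0 in 100 or more mice, and 1 FPKM in 50 or more. KK/HlJ reads carry mismatches to this genome that C57BL/6J reads do not, and their part in the differences was not tested. FPKM hold no counts, so the depth behind each value was not used here, and the spread over mice stands for the precision. Of the value columns, 0 were left unused.

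Mice were grouped by strain label. Mouse OB-627 carries the names of 2 strains and was dropped, which left 281 mice. Replicate numbers follow accession order, and the series design text describes 3 biological replicates per strain. Values were tested as log2(FPKM + 1) with limma 3.58.1 in R 4.3.3, moderated with an intensity trend, 2-sided, with Benjamini-Hochberg adjustment at 0.05 over all gene rows, transcripts or shares. The fit held all 99 strains, so the error of each contrast borrows the spread of the other strains. An exact permutation test of 3 against 3 mice cannot go below 0.1 and was not used. Shares were tested in genes with at least 2 transcripts and a summed level of at least 1 FPKM in every mouse, and called with a difference of at least 0.1. In simulated data with 50 genes changed at each size among 14079, KK/HlJ minus C57BL/6J recovered 74% of genes changed by 0.5, 88% by 1, 100% by 2 and 100% by 4 on the log2 scale, with 11 false calls. The simulation drew independent normal noise with the same spread for every strain, and changed only genes with a mean log2(FPKM + 1) above 1. It held no mouse that stood apart, so these figures do not measure the accuracy of the calls above.

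Gene names came from the assembly, and 4 symbols were carried by more than 1 row. A row with several symbols is called joined. Gene types, near-identical copies (BLAST 2.17.0, at least 95% identity over 200 bases or more, 11449 genes checked) and sequences came from GENCODE M21 on GRCm38, the assembly that mm10 denotes. A match also had to cover at least 50% of either transcript. For each gene only a single reference transcript, that of its most expressed form, was searched. Joined rows and rows without a symbol were not checked. Tables and figures used Python 3.11.15, numpy 2.4.6, pandas 2.3.3 and matplotlib 3.10.9. Genes named are the 15 highest and 15 lowest with 1 symbol, a call and no overlap between strains, members of the lists, the 5 highest and 5 lowest of each strain against the other inbred strains, and the 5 with the largest share difference. Some genes that met this rule are not reported here. The genes of the windows and of the last section fall outside this rule and were chosen after their values were seen. The members, lists and tests were chosen with earlier results of these data known. Alternatives were another pseudocount, a filter on low levels, quantile normalization, no trend, the 6 mice alone, larger minimum differences, and each mouse left out.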

Additional observations from a re-analysis of the deposited data

How the results depend on the processing

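Against 940 genes called between the strains, 442 were called in the fit of the 6 mice alone, 405 of them among the 940. Of the 940, 206 had an absolute log2 difference of at least 1 and 589 were among genes of 1 symbol without a near-identical copy, the last chosen after seeing the data. Other settings gave 956 (pseudocount of 0.1), 850 (mean of at least 1 FPKM), 997 (quantile normalization, 391 higher and 606 lower), 940 (no trend) and 1153 (without the mouse of another strain whose FPKM sum stood apart). The 1153 held all 940. The gene lists were not counted again without that mouse, so genes that narrowly missed the threshold above may be called there. Leaving out 1 of the 6 mice gave 710 to 813 genes, 568 to 977 for KK/HlJ against the other inbred strains (568 without KK/HlJ mouse 2) and 577 to 944 for C57BL/6J (615, 577 and 612 without C57BL/6J mouse 1, 2 and 3), 651 to 819 transcripts and 240 to 353 shares. In the fit of the 6 mice, 156 transcripts were called against 946, and 1 share against 332. With a share difference of at least 0.2, 150 shares were called. The fit of the 6 mice alone has far fewer residual degrees of freedom by construction. Each fit without 1 of the 6 mice has a smaller group in its comparison. For the 72 called named genes, in up to 12 settings each, 772 values stayed past the threshold, 91 kept their direction but missed it, 21 of them in the fit of the 6 mice, and 0 reversed. The 7 named genes not called stayed so in all 84 values. No paired analysis was possible because replicate numbers were given in accession order and pair no mice. FPKM without counts leave low genes, such as those listed at 0, without a detection limit, and 3 mice per strain limit precision.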

Other observations

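Several protein-coding genes without a near-identical copy also separated the strains, by smaller differences than the extremes above, and were chosen after their values were seen. Of the 589 called genes without a near-identical copy (5.62% of 10488), 513 were protein-coding with means of at least 1 FPKM in both strains and no overlap. Of these 513, 197 were higher and 316 lower in KK/HlJ. Wdfy1, an adaptor of endosomal receptor signalling, was 17.1, 17.4 and 18.3 FPKM in KK/HlJ and 4.77, 5.43 and 5.53 FPKM in C57BL/6J (1.58 ± 0.09, adjusted p = 9.28e-39 by limma). The other 23 inbred strains lay between 16 and 19.5 FPKM, so that C57BL/6J was apart from all of them. Rsph1, a radial spoke protein of motile cilia, was 25.7, 27.4 and 28.7 FPKM in KK/HlJ and 7.23, 9.53 and 9.36 FPKM in C57BL/6J (1.55 ± 0.19, adjusted p = 7.07e-12 by limma), and no other strain mean reached KK/HlJ. None of the 7 measured markers of ependyma, whose cells bear such cilia, and of tanycytes was called by limma, and 0 had an unadjusted p under 0.05. Padi2, which converts arginine to citrulline in proteins, was 21.5, 19.9 and 20.1 FPKM in KK/HlJ and 6.55, 7.42 and 7.20 FPKM in C57BL/6J (1.42 ± 0.14, adjusted p = 8.89e-18 by limma). Hddc3 was 44.4, 41.9 and 42.1 FPKM in KK/HlJ and 15.8, 9.10 and 14.9 FPKM in C57BL/6J (1.65 ± 0.20, adjusted p = 2.59e-12 by limma), with all 23 other strains above C57BL/6J.

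Among the lower genes, the unconventional myosin gene Myo7a was 1.78, 2.21 and 1.28 FPKM in KK/HlJ and 7.16, 7.57 and 7.20 FPKM in C57BL/6J (-1.61 ± 0.22, adjusted p = 1.02e-09 by limma). Here KK/HlJ was near the median of the other strains, 1.55 FPKM. Ano5 was 1.74, 1.39 and 1.66 FPKM in KK/HlJ and 5.27, 7.10 and 5.80 FPKM in C57BL/6J (-1.44 ± 0.17, adjusted p = 4.61e-12 by limma). Ppp1r3e, a subunit that directs protein phosphatase to glycogen, was 1.61, 2.11 and 2.01 FPKM in KK/HlJ and 7.62, 4.92 and 7.43 FPKM in C57BL/6J (-1.38 ± 0.15, adjusted p = 7.15e-14 by limma), and C57BL/6J was above every other strain mean. All 7 genes given here with an adjusted p were called in each fit that left out 1 mouse.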
